A study of Homo sapiens with 12 samples.

Results

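Collagen and extracellular matrix genes were followed in parental hTERT-RPE1 cells, a human retinal pigment epithelial line immortalized with telomerase, after knockdown of 2 genes of cell division. The members were 44 named genes: collagens, basement membrane proteins, other matrix glycoproteins, collagen-modifying enzymes, and matrix proteases with their inhibitors. They were found by symbol in the authors' comparison tables, and 39 of the 44 were in the table of 14862 genes with normalized counts. All 39 passed the filter on low values, which kept 14857 genes. The other 5, COL1A2, COL3A1, COL5A1, COL6A2 and POSTN, were near 0 in every library, with at most 0.0373 FPKM (fragments scaled to transcript length and library size).

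The 4 groups were transfected with siRNA to CENPF (siCENPF), with siRNA to FOXM1 (siFOXM1), with both (siCENPF+siFOXM1) or with a negative-control siRNA (siNeg). The siRNA dose was 20 nM and polyA RNA was taken after 48 hours. There were 3 libraries per group, with replicate numbers 1 to 3 from the labels, and all were of the same immortalized line. CENPF encodes a large protein of the kinetochore, and FOXM1 encodes a forkhead transcription factor that drives genes of G2 and mitosis. The sources used here do not state whether each siRNA was a single duplex or a pool, nor whether the dose with both siRNAs was for each or in total.

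Fibrillar collagens give tissue its tensile strength, whereas collagen IV, laminins, nidogens and perlecan build the sheet-like basement membrane. Collagen chains are hydroxylated and folded in the endoplasmic reticulum with the help of dedicated enzymes and the chaperone HSP47, leave it in COPII-coated carriers, and are crosslinked outside the cell by lysyl oxidases. Matrix metalloproteinases cut the deposited matrix and TIMP proteins inhibit them. Retinal pigment epithelium rests on Bruch's membrane, and its cells lay down the basement membrane on their side of it.

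Sequences are shown first for the pair of genes that includes COL4A1, the member called without the replicate block. COL4A1 and COL4A2 encode the alpha 1 and alpha 2 chains of the main collagen IV trimer and lie head to head on chromosome 13. In the RefSeq annotation of GRCh38.p14 their start sites are 127 bases apart, and the promoter windows of 300 bases (from upstream of each start to just inside the gene) share 226 bases. The COL4A1 window, chr13:110307108-110307407 on the minus strand, is printed with 2 GC boxes (GGGCGG or its reverse complement) and 1 CCAAT box (here ATTGG, the reverse complement of CCAAT) in capitals.
COL4A1: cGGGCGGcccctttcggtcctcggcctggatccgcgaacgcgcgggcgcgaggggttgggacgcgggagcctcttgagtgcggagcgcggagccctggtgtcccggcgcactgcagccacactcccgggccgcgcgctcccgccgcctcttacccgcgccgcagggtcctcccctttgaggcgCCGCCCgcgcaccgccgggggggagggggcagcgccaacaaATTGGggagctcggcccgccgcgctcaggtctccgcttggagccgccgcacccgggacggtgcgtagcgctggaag
These boxes are described as letters only.

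The microRNA miR-29 is known as a repressor of many collagens, so its site was looked up in the 3' untranslated regions of the members. The mature hsa-miR-29a-3p (RefSeq, GRCh38.p14, chr7:130876748-130876769, minus strand) has its seed, bases 2 to 8, in capitals below, and in the sites the capitals mark the TGGTGCT that pairs with it. Coordinates of the sites are those of GENCODE v29 on GRCh38. Both collagen IV genes hold a site close to the stop codon, at bases 30 and 28 of the region. A further 4 members are shown, all of which rose against siNeg in the fit with the replicate block. COL5A2, COL6A3, COL8A1, NID1, HSPG2 and MMP2 also hold a site, were not called against siNeg and are not shown. LOX, LOXL2 and ADAMTS12 hold sites as well and are not shown. With the block LOX rose with siCENPF and fell with siFOXM1. LOXL2 rose with siFOXM1 and with both siRNAs, and ADAMTS12 rose in each comparison.
hsa-miR-29a-3p: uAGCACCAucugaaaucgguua
COL4A1 (chr13:110150316-110150344, minus strand): atgtcacaacaTGGTGCTacttcttcttc
COL4A2 (chr13:110512208-110512236, plus strand): aagggccatttTGGTGCTtattcttaact
COL1A1 (chr17:50184562-50184590, minus strand): gagggaatcacTGGTGCTatagaaattga
LAMC1 (chr1:183144242-183144270, plus strand): atctgacacacTGGTGCTattaattattt
FBN1 (chr15:48410557-48410585, minus strand): tggtacctattTGGTGCTagtaaattttc
SPARC (chr5:151661367-151661395, minus strand): attggcccattTGGTGCTggccatttgag
Such a site was found in 15 of the 39 measured members (38.5%), against 14.2% of the 11794 tested genes with an annotated 3' untranslated region. FBN1, LOX and ADAMTS12 had more than 1. The median log2 fold change with a site and without it was 0.15 and 0.07 with siCENPF, 0.26 and 0.17 with siFOXM1, and 0.25 and 0.17 with both siRNAs against siNeg. With the block 5 members with a site and 6 without rose with siCENPF, 7 and 7 with siFOXM1, and 7 and 8 with both siRNAs. Levels of miR-29 itself were not analysed here, and these medians and counts carry no test.

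Reads counted in genes ran from 13671250 to 35411230 per library, the deepest being siNeg library 3. CENPF was at 10.8% of its siNeg level in siCENPF cells and 15.8% with both siRNAs, and FOXM1 at 15.2% in siFOXM1 cells and 17.7% with both. Of 14 markers of differentiated pigment epithelium, 5 passed the filter: BEST1 at 26.9 to 62.4 FPKM, MITF at 0.721 to 1.28, and PMEL, OTX2 and SERPINF1 below these. RPE65, TYR and RGR were at 0 FPKM in every library. Exon overlap of the markers with genes on the opposite strand was not looked up, and the strand setting is not given. Of 8 keratin, adhesion and filament markers, not all of them epithelial, VIM (587 to 688 FPKM), CDH2, KRT8, KRT18 and KRT7 were present. The epithelial markers CDH1, EPCAM and KRT19 were at most 0.0379 FPKM. The summed blood and endothelial markers stayed at or under 0.166 FPKM. Mitochondrially encoded mRNAs took 1.73% to 2.54% of the reads, with the lowest share in siNeg library 3. The 3 comparisons with siNeg share the same siNeg libraries, so they are not independent of each other. In bulk RNA, a lower level per cell and fewer cells that express a gene cannot be told apart.

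Levels per transcript length in siNeg cells ranged over the members from near 0 to 186 ± 24.2 FPKM (mean ± SD, n = 3) for MMP14, the membrane-bound metalloproteinase that activates MMP2. Next came THBS1 (thrombospondin 1) at 151 ± 34.6 FPKM, MMP2 itself at 93.5 ± 31.8 and SPARC, a collagen-binding matricellular glycoprotein, at 65.7 ± 8.39. The ranges of mean ± SD overlap for MMP14 and THBS1, and for MMP2 and SPARC. Within siNeg libraries 1, 2 and 3, MMP14 stood above THBS1 (205.5 over 149.3, 193.4 over 186.2 and 158.9 over 117 FPKM). MMP2 stood above SPARC in each as well (88.39 over 69.77, 127.5 over 71.21 and 64.51 over 56.01 FPKM). These differences between genes were not tested. LOX, which crosslinks collagen and elastin, stood at 56.3 ± 6.20 FPKM and the laminin chain LAMC1 at 44.4 ± 4.13 FPKM.

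Among collagens, the short-chain collagen COL8A1 at 35.3 ± 5.93 FPKM and COL4A2 at 34.9 ± 0.220 FPKM were indistinguishable, and COL4A1 stood at 17.7 ± 1.37 FPKM. The fibrillar chain COL5A2 had 6.73 ± 1.61 FPKM and the fibril-associated COL12A1 had 4.28 ± 0.933 FPKM. COL1A1, the major chain of collagen I, reached only 0.758 ± 0.557 FPKM, and its partner COL1A2 was near 0. Collagen VI was represented by COL6A3 at 0.852 ± 0.216 FPKM, while COL6A1 stood at 0.0923 ± 0.0507 FPKM. Fibronectin (FN1) and fibrillin 1 (FBN1) had 37.0 ± 12.9 and 29.6 ± 6.65 FPKM.

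**Figure D1:**
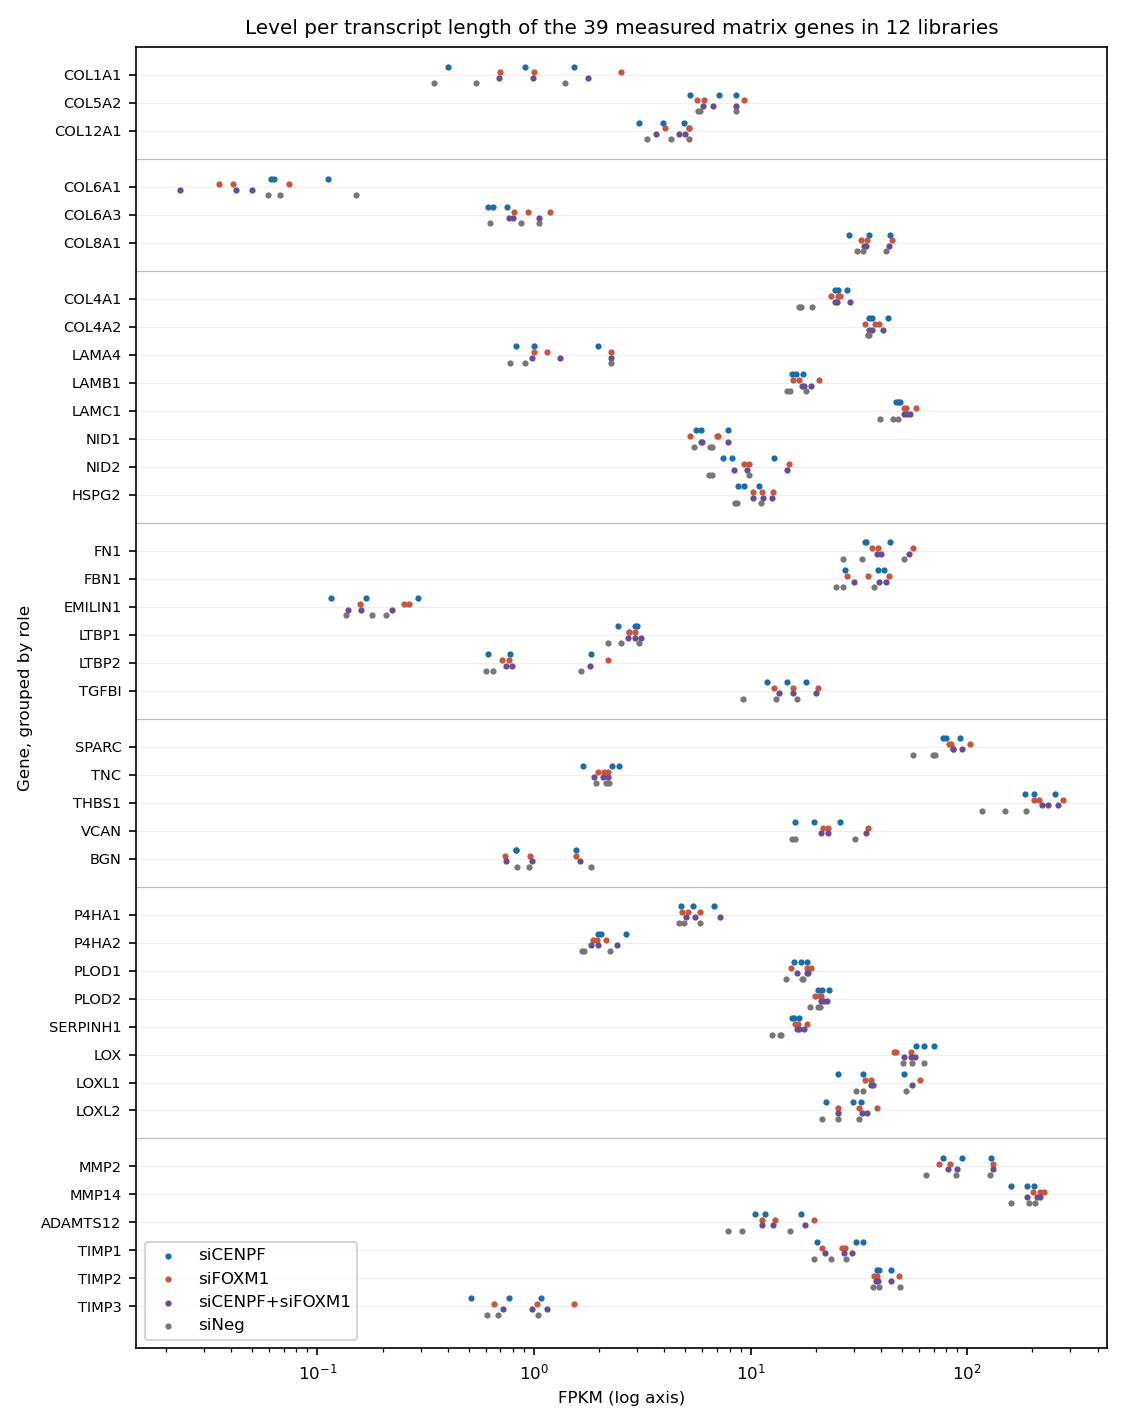
Each point is 1 library, placed by its FPKM on a log axis, for the 39 measured members in rows grouped by role (from the top: fibrillar collagens, other collagens, basement membrane, fibronectin and microfibrils, matricellular proteins, collagen-modifying enzymes, proteases and inhibitors). Most groups overlap within a gene; COL4A1 is a row in which all 9 knockdown libraries lie above the 3 siNeg libraries.

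Against siNeg, COL4A1 was the only member that passed the test in any comparison (limma on log2(normalized count + 1), adjusted over all 14857 genes, threshold 0.05). It was higher in siCENPF, siFOXM1 and siCENPF+siFOXM1 cells alike. So 1 of 39 members (2.56%) was called in each comparison, against 0.337% of all genes with siCENPF, 0.660% with siFOXM1 and 0.458% with both siRNAs. Unadjusted p was under 0.05 for 4, 6 and 7 members in these comparisons. How many of all genes were under it was not counted, here or in the comparisons below. Such counts therefore serve only as description.

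Libraries with the same replicate number deviated together, so the replicate number was also fitted as a block, which compares libraries within a number. With the block, 11 members rose and 0 fell with siCENPF, while 2.86% of all genes rose and 1.66% fell. With siFOXM1, 14 members rose and 1, LOX, fell, against 4.48% and 4.23% of all genes. With both siRNAs 15 rose and 0 fell, against 4.18% and 3.72%. The called share of the members was thus 28.2%, 38.5% and 38.5%. The members were chosen with earlier results of these data known. Their shares beside those of all genes, here, above and below, are therefore description only. Counts from edgeR on recovered reads with the block, for 38 members, were 11 higher and 0 lower, 15 and 1, and 15 and 0. Of 14150 genes it called 440 higher and 271 lower with siCENPF, 692 and 632 with siFOXM1, and 645 and 605 with both siRNAs.

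Most members stood on the same side of siNeg. Log2 fold changes were above 0 for 32 of 39 members with siCENPF, 34 with siFOXM1 and 33 with both siRNAs, against 49.8%, 49.8% and 49.3% of all genes. The members' medians were 0.13, 0.22 and 0.18, while the medians of all genes were 0.00 in all 3 comparisons. Within replicate numbers 1, 2 and 3, the members above siNeg numbered 30, 26 and 36 with siCENPF, 28, 33 and 35 with siFOXM1, and 33, 30 and 35 with both. The share of all reads taken by 38 members was 1.96% ± 0.24 with siCENPF, 2.14% ± 0.37 with siFOXM1 and 2.16% ± 0.26 with both, against 1.79% ± 0.37 with siNeg (SD, n = 3 each). These ranges overlap, while within each replicate number the knockdown libraries stood above siNeg in 9 of 9 cases, by as little as 2.23% with siCENPF against 2.20% with siNeg in number 2.

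The siNeg library 3 was the lowest of all 12 in this share, at 1.47%, and it was also the deepest library and the lowest in mitochondrial mRNA. Without it the blocked counts were 9 higher and 1 lower with siCENPF, 12 and 0 with siFOXM1, and 11 and 0 with both siRNAs. Of all 14857 genes, 349 were then higher and 202 lower with siCENPF, 385 and 396 with siFOXM1, and 404 and 376 with both. The members' medians without siNeg library 3 were 0.07, 0.12 and 0.16. Without replicate number 3 of every group the member counts were 6 and 1, 11 and 0, and 10 and 0. Those of all genes were 224 and 129, 242 and 271, and 244 and 225. The member that was lower in these settings was COL6A3, with siCENPF. The summed FPKM of 8 neural markers was 5.66 to 6.32 with siCENPF, 5.47 to 6.39 with siFOXM1 and 5.60 to 6.31 with both siRNAs, against 6.43 to 7.19 with siNeg. Of these 8, OLIG2 and STMN2 were at 0 in every library, 4 passed the filter (SNAP25, SYT1, TUBB3 and NES), and their part in the matrix results was not tested.

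**Figure D2:**
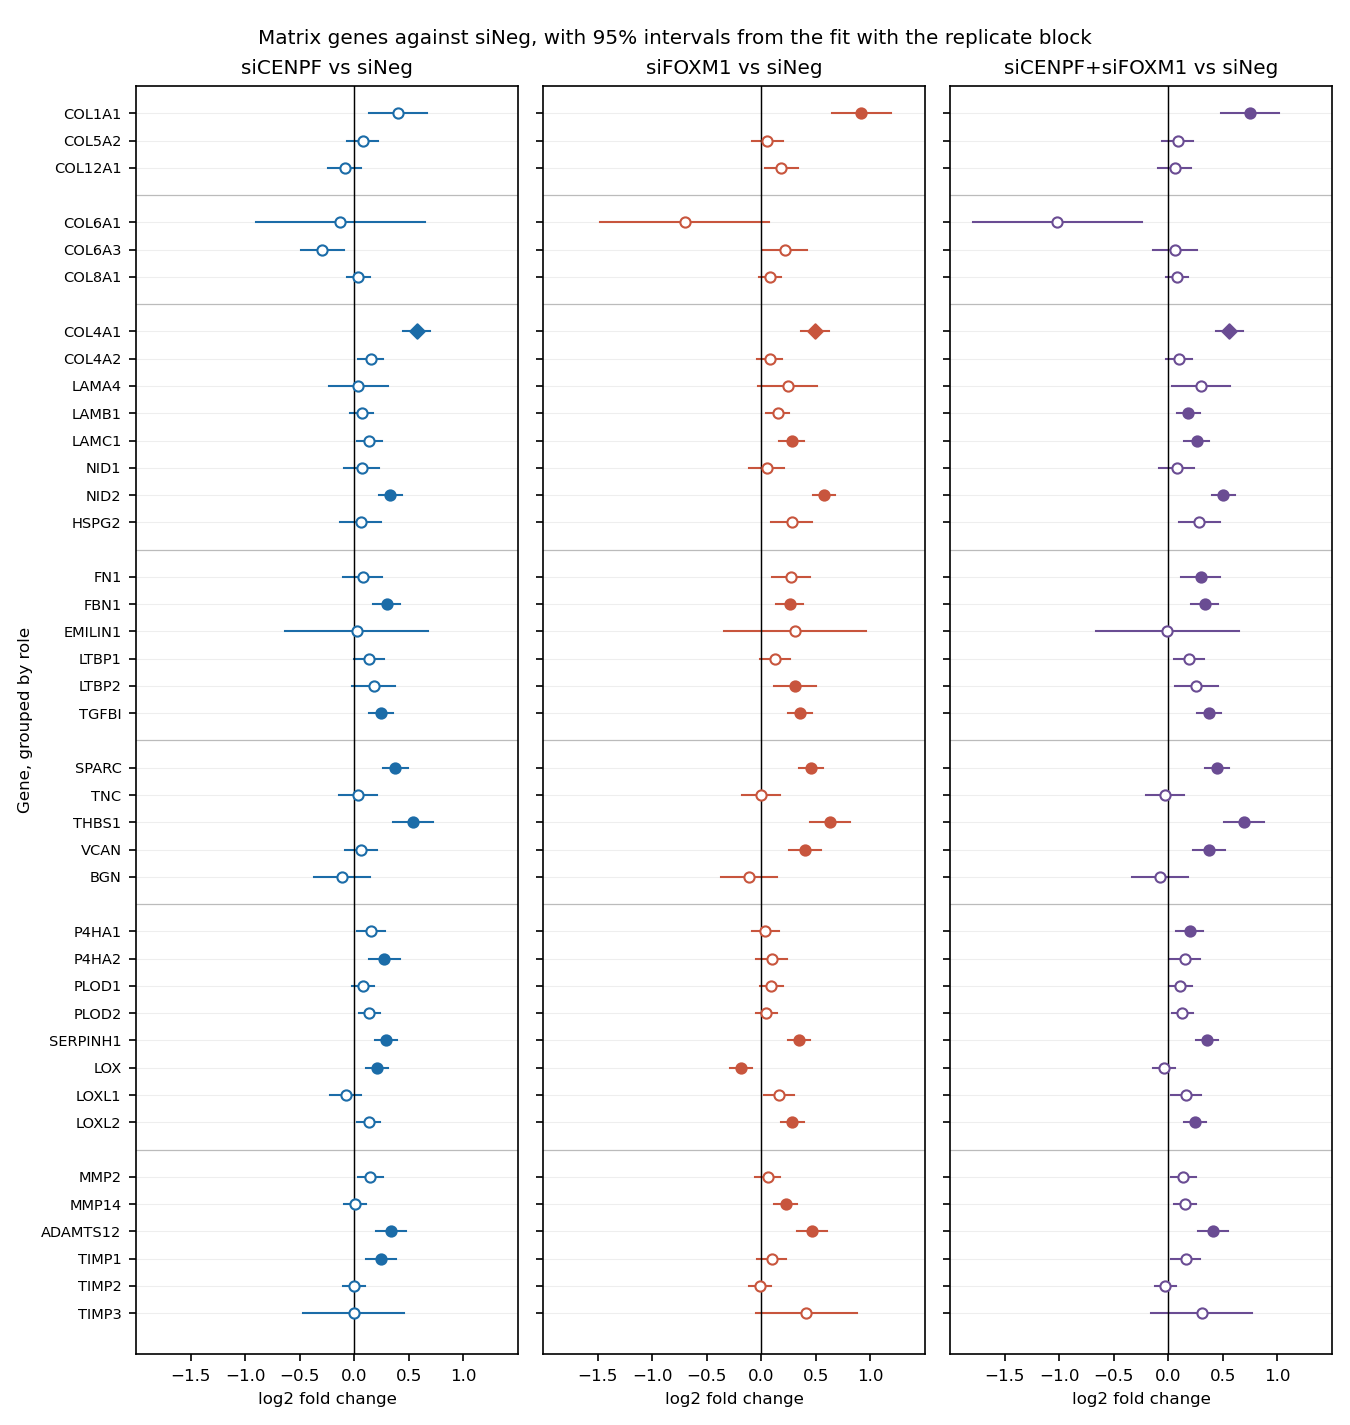
Log2 fold change against siNeg (x axis) of the 39 members in rows grouped by role, 1 panel per knockdown. Lines are 95% intervals from the fit with the replicate block, filled symbols passed the adjusted threshold of 0.05 with the block, and diamonds (COL4A1) passed it without the block too. The points lie mostly right of 0, while COL6A1, the lowest measured member, lies furthest to the left with siFOXM1 and with both siRNAs.

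Basement membrane genes included COL4A1, the member called without the block. All 8 listed members were measured and all 8 had log2 fold changes above 0 in each comparison, with medians of 0.10, 0.26 and 0.27 with siCENPF, siFOXM1 and both siRNAs. With the block 2, 3 and 4 of them rose and 0 fell. COL4A1 (chr13:110148963-110307149 on hg38) had 5502.5, 5454 and 6024 normalized counts in the siCENPF libraries 1 to 3, 5153, 5372 and 5542 with siFOXM1 and 5445, 5242 and 6180.1 with both siRNAs, against 4261, 3529 and 3669.8 with siNeg. Every knockdown library lay above every siNeg library. The group means were 5660.3 ± 316, 5356 ± 195 and 5622 ± 494, against 3819.7 ± 388 in siNeg cells (SD, n = 3 each).

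Log2 fold changes of COL4A1 were 0.57 with siCENPF, 0.49 with siFOXM1 and 0.56 with both siRNAs (SE 0.09 each, limma adjusted p = 0.0170, 0.0258 and 0.0147). Within replicate numbers the difference from siNeg was above 0 in 9 of 9 cases and ran from 0.27 to 0.75. With the block the limma adjusted p was 5.46e-07, 3.08e-06 and 5.42e-07. Without the block the call with siCENPF was lost when siCENPF 1, siCENPF 3, siNeg 2 or siNeg 3 was left out (log2 0.59, 0.53, 0.52 and 0.54). The call with siFOXM1 was lost without siFOXM1 1, 2 or 3 or siNeg 2 or 3 (0.52, 0.49, 0.47, 0.44 and 0.47). That with both siRNAs was lost without their libraries 1 or 3 or siNeg 2 or 3 (0.58, 0.49, 0.50 and 0.53). With only the groups compared in the fit and no block, it was lost in all 3 comparisons (limma adjusted p = 0.178, 0.0880 and 0.0777). With the block it held in each of the 6 settings that left out a number or a siNeg library.

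COL4A2, transcribed from the same divergent promoter region as COL4A1, was not called. It had 8076, 8069.6 and 9628 normalized counts in the siCENPF libraries 1 to 3, 7605, 8574 and 8259 with siFOXM1 and 7911, 7935 and 9035 with both siRNAs, against 7981, 7517 and 7678 with siNeg. The siCENPF libraries lay above all siNeg libraries, and the other groups overlapped siNeg. Its log2 fold changes were 0.15 with siCENPF, 0.08 with siFOXM1 and 0.10 with both siRNAs, and it passed neither without the block nor with it (limma adjusted p with the block 0.156, 0.487 and 0.333).

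The ratio of COL4A1 to COL4A2 normalized counts, which is not corrected for transcript length and serves only to compare libraries, was 0.681, 0.676 and 0.626 in the siCENPF libraries. It was 0.678, 0.627 and 0.671 with siFOXM1 and 0.688, 0.661 and 0.684 with both siRNAs, against 0.534, 0.469 and 0.478 with siNeg. No knockdown library reached down to a siNeg library. On the log2 scale the ratio was higher by 0.42, 0.42 and 0.46 in the 3 comparisons. The two-sided exact permutation p was 0.1 in each, the smallest that 3 against 3 libraries allow.

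**Figure D3:**
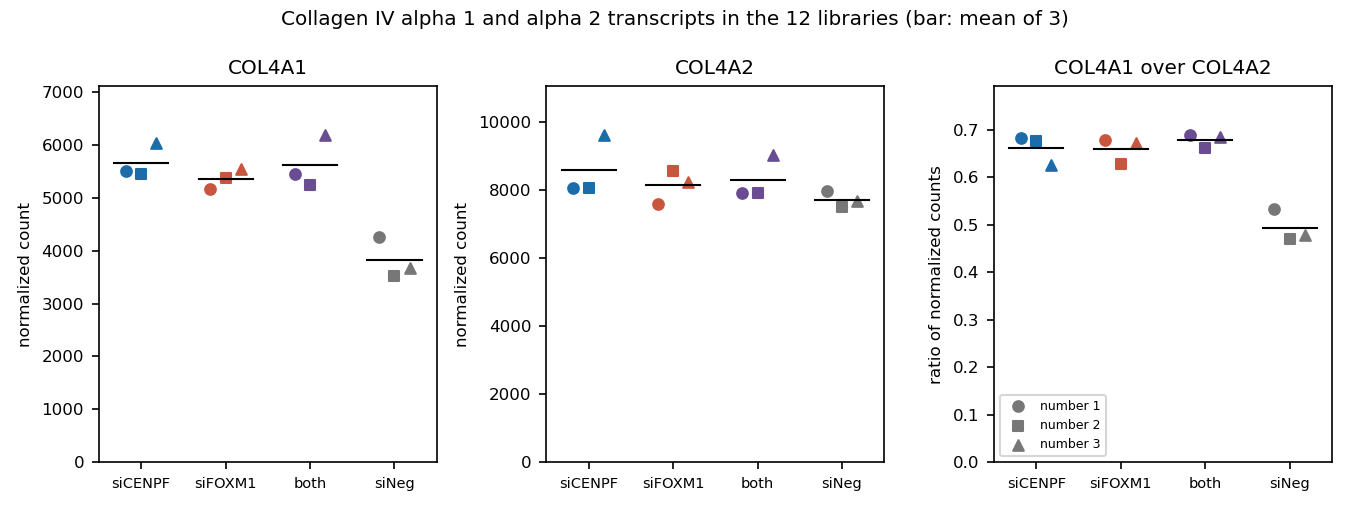
Normalized counts of COL4A1 (left) and COL4A2 (middle) and their ratio (right) in each library, with the replicate number as the symbol and the mean of 3 libraries as a bar. The COL4A1 counts and the ratio of every knockdown library lie above all siNeg libraries, whereas the COL4A2 counts overlap siNeg in 2 of the 3 knockdown groups.

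NID2, a nidogen that links laminin to collagen IV (chr14:52004803-52069228), had 3209, 2796.5 and 4825 normalized counts in the siCENPF libraries 1 to 3, 3748, 3432 and 5581 with siFOXM1 and 3623, 3101 and 5529 with both siRNAs, against 2535, 2352 and 3649 with siNeg. Number 3 was the highest library in every group, so the groups overlap although each knockdown library lay above the siNeg library of its number. Its log2 fold changes were 0.33 with siCENPF, 0.57 with siFOXM1 and 0.50 with both siRNAs (limma adjusted p = 0.9997, 0.687 and 0.804, and 8.57e-05, 9.79e-09 and 1.18e-07 with the block). NID2 shares 1915 exon bases, 30% of its own, with RTRAF, which runs the other way, and it is not stated whether counting used strand. Because the use of strand is not stated, reads of the pair cannot be told apart in that stretch. RTRAF stood at log2 0.11, 0.11 and 0.18 and was not called.

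The laminin gamma 1 chain LAMC1, part of most laminins (chr1:183023460-183145592), had 10979.5, 10256 and 10743 normalized counts in the siCENPF libraries 1 to 3, 11654, 12453 and 11201 with siFOXM1 and 11313, 11489.7 and 11943 with both siRNAs, against 10229, 10204 and 8692 with siNeg. All knockdown libraries lay above the siNeg libraries, in part by small margins. Its log2 fold changes were 0.14 with siCENPF, 0.28 with siFOXM1 and 0.26 with both siRNAs, and with the block it rose with siFOXM1 and with both siRNAs (limma adjusted p = 0.00135 and 0.00342) but did not pass with siCENPF. The call with both siRNAs was lost without number 3 or without siNeg 3, where log2 reached down to 0.16. LAMB1 rose by the blocked test with both siRNAs, at log2 0.18 (limma adjusted p = 0.0280), a call lost without number 1 or 3 or siNeg 1 or 3 (log2 0.14 to 0.22 over the settings). Perlecan (HSPG2) stood at log2 0.28 with siFOXM1 and with both siRNAs and did not pass (limma adjusted p with the block 0.0696 and 0.0685). HSPG2 shares 2121 exon bases, 11.7% of its own, with LDLRAD2 on the opposite strand. LDLRAD2 stood at log2 0.15 with siCENPF, 0.34 with siFOXM1 and 0.32 with both siRNAs (limma adjusted p with the block 0.386, 0.00861 and 0.0162). Reads of that stretch cannot be told apart. The laminin chain LAMA4 and the nidogen NID1 ranged from log2 0.04 to 0.30 and were not called.

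Of the fibrillar and fibril-associated collagens 3 of 6 were measured. COL1A1 rose with the block in siFOXM1 cells and with both siRNAs. It had 122, 432 and 259 normalized counts in the siCENPF libraries 1 to 3, 203, 695 and 283 with siFOXM1 and 199.7, 495 and 282 with both siRNAs, against 103, 383 and 149 with siNeg. Number 2 was highest in each group, and its siNeg library exceeded several knockdown libraries of the other numbers. Log2 fold changes were 0.40 with siCENPF, 0.92 with siFOXM1 and 0.75 with both siRNAs (limma adjusted p with the block 0.0758, 2.22e-05 and 3.90e-04, and 0.9997, 0.853 and 0.915 without it). The SE was 0.66 without the block and 0.13 with it. The difference from siNeg within a number was above 0 in 9 of 9 cases.

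COL5A2, which joins collagen V and I in fibrils and had the highest FPKM of these, gave 1459.6, 2287.5 and 1928 normalized counts in the siCENPF libraries 1 to 3, 1535.5, 2443 and 1629 with siFOXM1 and 1624, 2253 and 1791 with both siRNAs, against 1607, 2231 and 1526 with siNeg. The groups overlap throughout, and its log2 fold changes of 0.08 with siCENPF, 0.05 with siFOXM1 and 0.09 with both siRNAs did not pass (limma adjusted p with the block 0.630, 0.722 and 0.516). COL12A1 ranged from log2 -0.09 to 0.18 against siNeg and was not called.

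Of the microfibrillar and short-chain collagens 3 of 4 were measured, and 0 passed against siNeg with or without the block. COL8A1, found in Descemet's membrane and vessel walls, had 8553.5, 12724 and 10171 normalized counts in the siCENPF libraries 1 to 3, 9541.5, 12769 and 9895 with siFOXM1 and 9776, 12453 and 9897 with both siRNAs, against 9130.5, 11819 and 9496.5 with siNeg, with groups that overlap. Its blocked 95% intervals were -0.07 to 0.14, -0.02 to 0.18 and -0.02 to 0.18 on the log2 scale. COL6A1 was the member with the fewest reads and stood at log2 -1.02 with both siRNAs, where all 3 libraries (10.8, 12.2 and 5.98 normalized counts) lay below siNeg (14.7, 33.1 and 15.8). It did not pass (limma adjusted p = 0.621, and 0.101 with the block).

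Fibronectin, microfibril and adhesive glycoprotein genes were all 6 measured, and with the block 2, 3 and 3 of them rose and 0 fell. Fibronectin (FN1), which cells assemble into fibrils through integrins, had 72614, 90223.5 and 69933 normalized counts in the siCENPF libraries 1 to 3, 80959, 113855 and 74185 with siFOXM1 and 80157, 109250.3 and 82169 with both siRNAs, against 69100.1, 102846 and 54675 with siNeg. Number 2 was the highest in each group and siNeg 3 the lowest library of all. Its log2 fold changes were 0.08 with siCENPF, 0.27 with siFOXM1 and 0.30 with both siRNAs, and only the comparison of both siRNAs passed with the block (limma adjusted p = 0.0471), with siFOXM1 at 0.0630. That call was lost without number 1 or 3 or siNeg 1 or 3, and log2 ran from 0.15 to 0.40 over the 6 settings.

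Fibrillin 1 (FBN1), the core of elastic microfibrils, had 14616, 21054 and 19927 normalized counts in the siCENPF libraries 1 to 3, 14600.4, 21912 and 17755 with siFOXM1 and 15513, 21335 and 20019 with both siRNAs, against 13056.5, 18579 and 13672.5 with siNeg. Each knockdown library lay above siNeg of its own number, and the groups overlap across numbers. It stood at log2 0.30 with siCENPF, 0.26 with siFOXM1 and 0.33 with both siRNAs (limma adjusted p with the block 0.00264, 0.00531 and 5.37e-04). The calls with siCENPF and siFOXM1 were lost without number 3, and that with siFOXM1 also without siNeg 3, where log2 reached down to 0.17 and 0.16.

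TGFBI, a secreted adhesive protein named for its induction by TGF-beta, had 6404.5, 7467 and 4975 normalized counts in the siCENPF libraries 1 to 3, 6664, 8371 and 5350.1 with siFOXM1 and 6603, 8280.5 and 5661 with both siRNAs, against 5614, 6627 and 3824 with siNeg. Again each knockdown library exceeded siNeg of its number. Relative to siNeg it was at log2 0.25 with siCENPF, 0.36 with siFOXM1 and 0.37 with both siRNAs (limma adjusted p with the block 0.00569, 5.59e-05 and 3.67e-05), and the call with siCENPF was lost without number 3 or siNeg 3, at log2 down to 0.17. LTBP2, a latent TGF-beta binding protein of microfibrils, rose with the block with siFOXM1 at log2 0.31 (limma adjusted p = 0.0397), and the call was lost without number 2 or 3 or siNeg 2 or 3 (log2 0.23 to 0.40). LTBP1 and EMILIN1 were not called.

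Of the matricellular proteins and proteoglycans 5 of 6 were measured, and with the block 2, 3 and 3 of them rose and 0 fell. SPARC (chr5:151661096-151687165) had 19765, 22035 and 18587 normalized counts in the siCENPF libraries 1 to 3, 20335, 23991 and 19624 with siFOXM1 and 20612, 22221 and 20498 with both siRNAs, against 16979.6, 16484 and 13266 with siNeg. The lowest knockdown library lay above the highest siNeg library. Log2 fold changes were 0.37 with siCENPF, 0.46 with siFOXM1 and 0.45 with both siRNAs, with blocked limma adjusted p of 5.62e-05, 2.05e-06 and 3.41e-06 and 0.391, 0.109 and 0.153 without the block. In the 6 settings that left out a number or a siNeg library, the blocked call held in each comparison. SPARC shares 381 exon bases with CLMAT3 on the opposite strand, 7.89% of its own. CLMAT3 stood at log2 0.38 with siCENPF, 0.42 with siFOXM1 and 0.47 with both siRNAs (limma adjusted p with the block 0.00524, 0.00107 and 3.94e-04), and reads of the shared stretch cannot be told apart.

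THBS1, a secreted glycoprotein that binds matrix and activates latent TGF-beta (chr15:39581079-39599466), had 44795, 58669 and 47489.7 normalized counts in the siCENPF libraries 1 to 3, 47922, 63161 and 49752 with siFOXM1 and 52116, 60249.9 and 54647 with both siRNAs, against 35499, 42110.3 and 27085 with siNeg. Every knockdown library lay above the siNeg libraries. Log2 fold changes of 0.54 with siCENPF, 0.63 with siFOXM1 and 0.69 with both siRNAs were the highest in the role group, with blocked limma adjusted p of 0.00261, 4.90e-04 and 2.91e-04, and 0.379, 0.126 and 0.108 without the block. The blocked call was lost in each comparison when number 2 was left out (highest limma adjusted p 0.222, 0.130 and 0.0937). Over the 6 settings its log2 fold change ran from 0.40 to 0.64 with siCENPF, 0.49 to 0.73 with siFOXM1 and 0.54 to 0.79 with both siRNAs. THBS1 shares 411 exon bases with AC037198.2 on the opposite strand, which stood at 0.48, 0.62 and 0.64 (limma adjusted p with the block 0.0201, 0.00257 and 0.00231), and reads of that stretch cannot be told apart. In the authors' deposited tables, THBS1 and COL4A1 were the 2 members with an adjusted p under 0.05 with siFOXM1 and with both siRNAs, and 0 members were under it with siCENPF. Those deposited tables of the authors gave THBS1 log2 fold changes of 0.62 and 0.67 (adjusted p = 0.0460 and 0.00525) and COL4A1 0.49 and 0.56 (0.0318 and 0.00677). In them 107 of 14393 genes were under 0.05 with siFOXM1, 80 of 14336 with both siRNAs and 27 of 14306 with siCENPF. They held 38, 38 and 39 of the members in that order.

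Versican (VCAN), a large chondroitin sulfate proteoglycan, gave 17249.6, 26676 and 20346.5 normalized counts in the siCENPF libraries 1 to 3, 22620.1, 35453 and 23493 with siFOXM1 and 21991, 34596.5 and 23527 with both siRNAs, against 16895, 30605 and 15892.5 with siNeg. Its siCENPF and siNeg libraries overlap, and it rose with the block in both groups that received siFOXM1. The log2 fold changes were 0.06 with siCENPF, 0.40 with siFOXM1 and 0.37 with both siRNAs (limma adjusted p with the block 0.725, 0.00106 and 0.00214). VCAN shares 453 exon bases, 3.05% of its own, with VCAN-AS1 on the opposite strand. VCAN-AS1 stood at 0.19, 0.47 and 0.39 (limma adjusted p with the block 0.127, 4.11e-05 and 4.60e-04), and reads of that stretch cannot be told apart. Tenascin C (TNC) and biglycan (BGN) stood between log2 -0.11 and 0.03 and were not called.

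**Figure D4:**
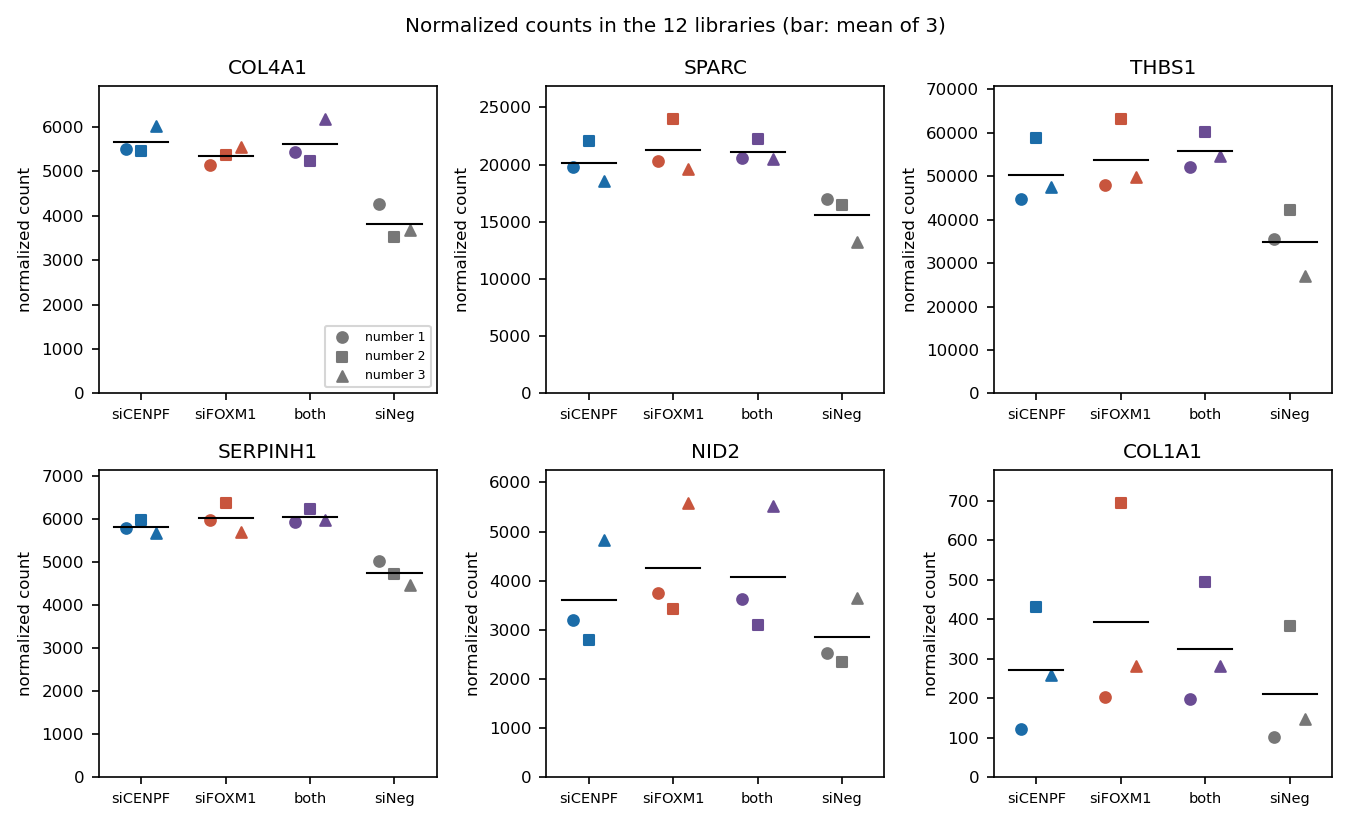
Normalized counts (y axis, from 0) of 6 members in each library, with the replicate number as the symbol, the group by position and colour, and the mean of 3 as a bar. COL4A1, SPARC, THBS1 and SERPINH1 separate all knockdown libraries from siNeg, whereas in NID2 and COL1A1 the replicate number goes with much of the height and the difference from siNeg is seen within each number.

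Genes of collagen folding, modification and crosslinking were all 8 measured, and with the block 3 rose with siCENPF, 2 rose and 1 fell with siFOXM1, and 3 rose with both siRNAs. SERPINH1, which encodes HSP47, the procollagen chaperone of the endoplasmic reticulum (chr11:75562056-75572783), had 5790, 5979.7 and 5689.6 normalized counts in the siCENPF libraries 1 to 3, 5986, 6382 and 5711 with siFOXM1 and 5930.4, 6231 and 5993 with both siRNAs, against 5034, 4732 and 4484 with siNeg. No knockdown library reached down to siNeg, and only 6.16% of its variation lay between numbers. Log2 fold changes were 0.29 with siCENPF, 0.34 with siFOXM1 and 0.35 with both siRNAs (limma adjusted p = 0.198, 0.0604 and 0.0681, and 3.17e-04, 2.76e-05 and 2.46e-05 with the block). With the block the call held in each of the 6 left-out settings.

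LOX (chr5:122063195-122078285) was the member whose called changes had opposite signs. It had 14168, 11306 and 12402 normalized counts in the siCENPF libraries 1 to 3, 10925, 8963 and 8946 with siFOXM1 and 11360.4, 9835 and 10737 with both siRNAs, against 12544, 9604 and 10741 with siNeg. The siFOXM1 libraries lay below the siCENPF libraries, and both groups overlap siNeg. With the block it rose with siCENPF and fell with siFOXM1, at log2 0.21 and -0.19 (limma adjusted p = 0.0109 and 0.0137), and with both siRNAs it stood at -0.04. Neither call passed without the block. The siCENPF call was lost without number 1, number 3 or siNeg 2 (log2 down to 0.17), and the siFOXM1 call without number 1, number 3, siNeg 1 or siNeg 3 (log2 up to -0.15). LOX shares 138 exon bases, 2.49% of its own, with SRFBP1 on the opposite strand. SRFBP1 stood at log2 0.11, -0.21 and -0.05 (limma adjusted p with the block 0.411, 0.0423 and 0.714), and reads of that stretch cannot be told apart.

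LOXL2, a related lysyl oxidase that acts on collagen IV, had 5843.5, 8081 and 7532.5 normalized counts in the siCENPF libraries 1 to 3, 6482.5, 9489.6 and 7966 with siFOXM1 and 6428, 8533 and 8230.1 with both siRNAs, against 5513, 7733 and 6356.5 with siNeg. With the block it rose with siFOXM1 and with both siRNAs, and its log2 fold changes were 0.13 with siCENPF, 0.28 with siFOXM1 and 0.25 with both siRNAs (limma adjusted p with the block 0.157, 3.88e-04 and 0.00221). The call with both siRNAs was lost without number 3, at log2 0.18. LOXL2 shares 178 exon bases, 3.12% of its own, with AC090197.1 on the opposite strand. AC090197.1 stood at 0.11, 0.30 and 0.23 (limma adjusted p with the block 0.468, 0.00590 and 0.0427), and reads of that stretch cannot be told apart. P4HA2, a catalytic subunit of prolyl 4-hydroxylase, rose with the block with siCENPF at log2 0.27 (limma adjusted p = 0.0174), and P4HA1 with both siRNAs at 0.19 (0.0468). Of the 6 settings that left out a number or a siNeg library, P4HA2 stayed called in 1, without siNeg 1, and P4HA1 in 0 (log2 0.24 to 0.32 and 0.13 to 0.23). The lysyl hydroxylases PLOD1 and PLOD2 and the oxidase LOXL1 ranged from log2 -0.08 to 0.16 and were not called.

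Matrix proteases and their inhibitors were all 6 measured, and with the block 2, 2 and 1 of them rose and 0 fell. ADAMTS12, a secreted metalloprotease, had 3846, 6074 and 4162 normalized counts in the siCENPF libraries 1 to 3, 4098, 6812 and 4599 with siFOXM1 and 4050.3, 6277 and 4485 with both siRNAs, against 3309, 5266 and 2787 with siNeg. Number 2 was highest in each group, and each knockdown library exceeded siNeg of its number. Its fold changes on the log2 scale were 0.33 with siCENPF, 0.47 with siFOXM1 and 0.41 with both siRNAs (limma adjusted p with the block 0.00336, 5.04e-05 and 2.93e-04), and the call with siCENPF was lost without number 3, at log2 0.20.

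MMP14 had 30593, 27147 and 23259.9 normalized counts in the siCENPF libraries 1 to 3, 32054, 32273 and 29129 with siFOXM1 and 31787.5, 30020.2 and 27271 with both siRNAs, against 30427, 27234 and 22899 with siNeg. The siCENPF libraries differed little from siNeg of the same numbers, and with the block it rose with siFOXM1 at log2 0.22 (limma adjusted p = 0.00400) but did not pass with siCENPF (0.01) or both siRNAs (0.15). The call was lost without number 3, where log2 reached down to 0.16. TIMP1 rose with the block with siCENPF at log2 0.25 (limma adjusted p = 0.0269), lost without number 1 or 2 or siNeg 1 or 2 (log2 0.17 to 0.34). MMP2, TIMP2 and TIMP3 were not called, and TIMP2 stood between log2 -0.027 and -0.0012.

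The knockdowns were also compared with each other, without siNeg. Without the block 0 of 39 members passed for siFOXM1 against siCENPF, against 0.458% of all genes, and 2 had an unadjusted p under 0.05. The same count was 0 for both siRNAs against siCENPF (0.0808% of genes) and against siFOXM1 (0.00673%), with 0 and 0 members at an unadjusted p under 0.05. With the block, 7 members were higher and 1 lower in siFOXM1 than in siCENPF cells, 20.5% of the members against 7.57% of all genes. The 7 were COL1A1, COL12A1, COL6A3, NID2, VCAN, LOXL1 and MMP14, at log2 0.51, 0.27, 0.51, 0.24, 0.34, 0.24 and 0.21.

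LOX was the member that was lower in siFOXM1 than in siCENPF cells. It had 10925, 8963 and 8946 normalized counts in the siFOXM1 libraries, against 14168, 11306 and 12402 in the siCENPF libraries, and these groups do not overlap. The difference was log2 -0.39 (SE 0.05 with the block, limma adjusted p = 4.16e-06, and 0.337 without it). COL6A3, the long chain of collagen VI, had 1122, 1575 and 1271 normalized counts in the siFOXM1 libraries, against 869, 1014 and 883 in the siCENPF libraries, which do not overlap either, a difference of log2 0.51 (limma adjusted p with the block 0.00194). With number 1, 2 or 3 left out of every group, LOX and NID2 stayed called in each of the 3 settings. VCAN and COL12A1 were lost without number 1, COL6A3 without number 2, MMP14 without number 3, and COL1A1 and LOXL1 without number 1 or 2.

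Cells with both siRNAs differed from siCENPF cells at VCAN, higher by log2 0.31, and LOX, at -0.24 (limma adjusted p with the block 0.0283 and 0.00578), 5.13% of the members against 1.46% of all genes. VCAN was lost without number 1, and LOX without number 1 or 3. From siFOXM1 cells they differed at 0 members, against 0.296% of genes, and 2 members had an unadjusted p under 0.05 with the block. Log2 differences between these 2 groups ran from -0.32 to 0.16 over the 39 members.

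The interaction asks whether both siRNAs together gave less or more than the sum of the single effects. Without the block 0 members passed, as did 0% of all genes, and 3 members had an unadjusted p under 0.05. With the block 4 members fell short of the sum, 10.3% against 0.841% of all genes. They were COL4A1 (log2 -0.50), NID2 (-0.40), SPARC (-0.38) and SERPINH1 (-0.29). Leaving out number 2 ended the call of COL4A1, numbers 1 or 3 that of NID2, numbers 2 or 3 that of SPARC, and any number that of SERPINH1. Interaction terms were above 0 for 5 of the 39 members, with a median of -0.08, against 50.3% of all genes, with a median of 0.0009. The siNeg libraries enter every interaction term, so this shares its data with the comparisons above.

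Replicate numbers carried much of the variation of matrix genes. An F test between numbers, with the groups in the fit, called 32 of 39 members (82.1%), against 46.4% of all genes (limma, adjusted over all genes). This test was added after the data had been seen. For 29 members more variation lay between numbers than between siRNA groups. The median share between numbers was 67.8% of the sum of squares for the members and 41.0% for all genes, while the median share between groups was 23.1% and 22.2%.

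Number 2 was the highest for 27 members, and the same count over all genes was not made. BGN, LTBP2 and MMP2 had 97.0%, 95.3% and 93.4% of their variation between numbers, and COL1A1 had 77.1%. On the log2 scale, the distance between the highest and lowest number was 1.69 for COL1A1, 1.39 for LTBP2 and 1.16 for LAMA4, each more than any difference from siNeg of these genes. NID2 and NID1 were instead highest in number 3, and TIMP1, PLOD1 and MMP14 in number 1. COL4A1, SERPINH1 and LAMC1 varied little by number (3.87%, 6.16% and 5.21%) and mostly by group (88.1%, 88.5% and 72.6%). The labels do not say what the numbers stand for or whether the libraries come from separate cultures, so the p-values measure the spread between these libraries.

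**Figure D5:**
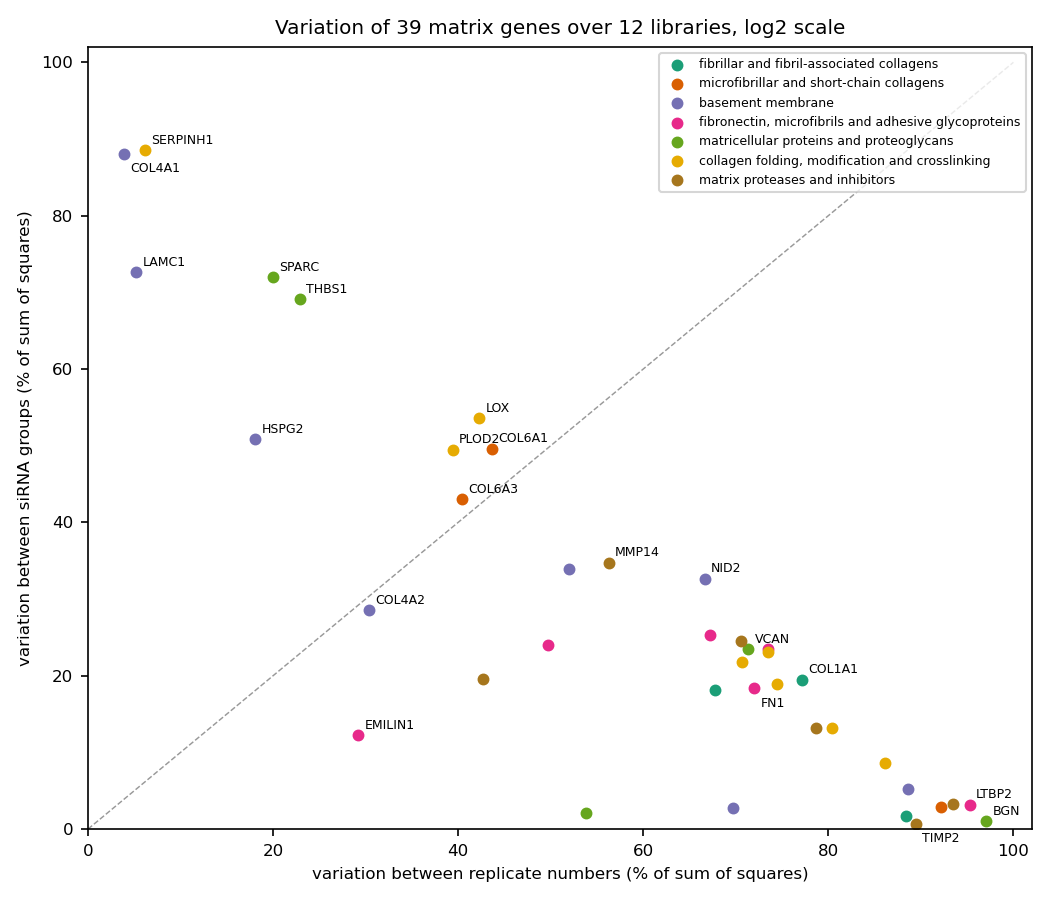
Each point is 1 of the 39 members, placed by the share of its log2 sum of squares that lies between replicate numbers (x axis, percent) and between siRNA groups (y axis, percent). Points right of the dashed line, 29 of 39, vary more by number, and COL4A1, SERPINH1 and LAMC1 lie at the upper left.

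Other genes of the pathway were read from lists of genes outside the 44. With the block 2.86% of all genes rose and 1.66% fell with siCENPF, 4.48% and 4.23% with siFOXM1, and 4.18% and 3.72% with both siRNAs, beside which the counts of each list stand as a description. Of 32 further genes of collagen folding, transport and processing, 30 were measured, 26, 25 and 25 had log2 fold changes above 0 against siNeg, and 1 passed without the block in each comparison. This was SEC31A, a coat protein of the COPII carriers that export procollagen, with log2 fold changes of 0.68 with siCENPF, 0.64 with siFOXM1 and 0.63 with both siRNAs (limma adjusted p = 0.0166, 0.0153 and 0.0203). It averaged 4801.5 ± 508, 4647 ± 428 and 4619.7 ± 381 normalized counts, against 2990.2 ± 342 in siNeg cells (SD, n = 3 each). Its call was lost in each comparison without library 1 or 3 of the knockdown group or without siNeg 2 or 3, and log2 lay between 0.56 and 0.78 over all left-out libraries. With the block 7, 7 and 9 of the 30 rose and 0, 1 and 0 fell. The gene that fell was SEC23A, another COPII coat protein, with siFOXM1 (log2 -0.26, limma adjusted p with the block 0.00135).

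P3H1 and P3H4, which take part in prolyl 3-hydroxylation and lysyl hydroxylation of collagen, were among those that rose with the block. P3H4 stood at log2 0.53 with siCENPF, 0.35 with siFOXM1 and 0.33 with both siRNAs (limma adjusted p with the block 1.19e-05, 0.00135 and 0.00271). P3H1 stood at 0.28 with siCENPF, 0.32 with siFOXM1 and 0.33 with both siRNAs (limma adjusted p with the block 0.00379, 6.23e-04 and 5.47e-04).

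Further basement membrane genes were 20, of which 12 were measured, and with the block 1, 2 and 3 rose and 1, 0 and 0 fell. Netrin 4 (NTN4), which binds laminin, stood at log2 0.42 with siCENPF, 0.23 with siFOXM1 and 0.33 with both siRNAs (limma adjusted p with the block 8.63e-06, 0.00569 and 1.72e-04). LAMB3, a chain of laminin 332, fell with siCENPF by the blocked test (log2 -0.22, limma adjusted p = 0.00947). LAMB2 rose with both siRNAs (0.16, 0.0415).

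Of 38 further glycoproteins and proteoglycans 19 were measured, and SDC4 passed without the block with both siRNAs. SDC4, a transmembrane heparan sulfate proteoglycan of focal adhesions, stood at log2 0.43 with siCENPF, 0.35 with siFOXM1 and 0.50 with both siRNAs (limma adjusted p = 0.0766, 0.122 and 0.0236, and 1.24e-05, 1.11e-04 and 9.80e-07 with the block). The SDC4 call without the block was lost without library 1, 2 or 3 of the double knockdown or without siNeg 2 or 3 (log2 0.44 to 0.55). GPC1, a lipid-anchored heparan sulfate proteoglycan, stood at 0.31 with siCENPF, 0.30 with siFOXM1 and 0.31 with both siRNAs and rose in each comparison with the block (limma adjusted p = 9.45e-04, 7.69e-04 and 6.39e-04). With the block 4, 4 and 5 of the 19 rose and 0, 1 and 1 fell. The gene that fell was CCN3, at log2 -0.31 with siFOXM1 and -0.25 with both siRNAs (limma adjusted p with the block 0.00803 and 0.0449). SPON1 had log2 fold changes of -0.53 with siCENPF, -0.83 with siFOXM1 and -0.24 with both siRNAs and was not called.

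Of 32 further collagen chains 13 were measured, 0 passed without the block, and with it 0, 2 and 2 rose and 1, 0 and 0 fell. The chain that fell was COL17A1, a transmembrane collagen of hemidesmosomes, with siCENPF (log2 -0.86, limma adjusted p with the block 0.0102), at 61.6 ± 14.04 normalized counts against 111 ± 17.7 in siNeg cells (SD, n = 3 each). COL8A2 and COL27A1, both at low counts, were not called.

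Of 35 further proteases and inhibitors 25 were measured and 0 passed without the block, and with it 2, 3 and 4 rose and 0 fell. PLAT, the tissue plasminogen activator, stood at log2 0.11 with siCENPF, 0.36 with siFOXM1 and 0.43 with both siRNAs (limma adjusted p with the block 0.278, 3.08e-05 and 3.24e-06). ADAM19 stood at 0.29 with siCENPF, 0.54 with siFOXM1 and 0.51 with both siRNAs (limma adjusted p with the block 0.142, 0.00498 and 0.00817), and ADAM12 was not called. Of 22 integrins and other matrix receptors 20 were measured and 0 passed without the block, and with it 2, 5 and 5 rose and 1, 2 and 0 fell. ITGA7 fell with siCENPF (log2 -0.20, limma adjusted p with the block 0.0302). ITGA6 and CD47 fell with siFOXM1 (-0.26 and -0.19, limma adjusted p with the block 3.65e-04 and 0.0448). ITGA5, the alpha chain of the fibronectin receptor, stood at log2 0.34 with siCENPF, 0.60 with siFOXM1 and 0.52 with both siRNAs (limma adjusted p with the block 0.00264, 2.30e-06 and 2.15e-05). CD44, a hyaluronan receptor, stood at 0.17 with siCENPF, 0.23 with siFOXM1 and 0.20 with both siRNAs (limma adjusted p with the block 0.0295, 0.00207 and 0.00794).

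TGF-beta ligands, receptors, SMADs and feedback genes, which control many matrix genes, lay on both sides of siNeg. Of 20 genes 19 were measured, 10, 7 and 9 of them above 0, with medians of 0.02, -0.02 and -0.01. With the block 2 rose and 2 fell with siFOXM1, and 0 passed with siCENPF or with both siRNAs. The 2 that fell were the co-receptor ENG (log2 -0.61, limma adjusted p with the block 0.00730) and the receptor TGFBR1 (-0.27, 0.0266). Mitochondrially encoded mRNAs, listed as a measure of library quality, were above 0 for 13, 13 and 11 of 13 genes, with medians of 0.11, 0.13 and 0.07, and with the block 2, 3 and 0 of them rose.

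Promoter letters were counted in the windows shown for COL4A1 above, on both strands. RefSeq windows were found for 31 of the 39 members. GC boxes (GGGCGG) were in 23 of the 31 (74.2%), against 45% of 35116 promoters, and CCAAT boxes in 13 (41.9%), against 34.6%. The word TTTGAA, the core of the CHR element of cell-cycle promoters, was in 4 (12.9%), against 15.2%, and the forkhead core TGTTTA in 0, against 12.3%. NID2, SERPINH1 and THBS1 were among the members with both a CCAAT and a GC box. Members were counted by gene, whereas the 35116 promoters were counted singly and were not limited to the tested genes. The shares of members and of promoters are therefore not like for like. They carry no test, and no excess or lack in the members is drawn from them. These are matches of letters in 300 bases, and binding was not measured.

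The word AGCAACC in 3' untranslated regions was searched as well, a choice made with earlier results of these data known. It was in 1 of the 39 members (2.56%), against 6.61% of 11794 tested genes. The member was COL1A1, on the minus strand at chr17:50185418-50185446, where the capitals mark the word.
COL1A1: ggaaacagacaAGCAACCcaaactgaacc
COL4A1, SPARC, THBS1 and SERPINH1 do not hold it in the annotated region searched. In all, 17 of the 39 members share exon bases with a gene on the opposite strand. COL4A1 and SERPINH1 are not among them, while THBS1 shares 411 bases with AC037198.2 and 448 with FSIP1.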

How the data were processed

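RNA-seq libraries of hTERT-RPE1 cells were analysed from the tables the authors deposited. Per the submitters' processing notes, bcl2fastq, Trimmomatic, TopHat, edgeR and the hg38 build were used, with no versions. The authors deposited normalized counts, a signal scaled between libraries (how is not stated), and FPKM values. Their comparison tables hold CPM per library, log2 fold changes and adjusted p-values, per the file headers. Strand setting and separation of cultures are not given.

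The filter asked for 10 or more normalized counts in 3 or more of the 12 libraries, and log2(normalized count + 1) was tested with limma 3.58.1 (trend and robust options, R 4.3.3) over all 4 groups, with Benjamini-Hochberg adjustment over 14857 genes at 0.05. Whole reads were recovered from the CPM, with 100% of values within 0.01 of a whole number, for 14150 genes. They gave depths of 13671250 to 35411230 reads and entered edgeR 4.0.16 and DESeq2 1.42.0 as alternatives. Deviations from the group means correlated in all 18 pairs of libraries with the same replicate number (r = 0.272 to 0.639), so the number was also fitted as a block, and blocked calls are named as such. For members and lists, chosen with earlier results of these data known, library values are given where a member passed without the block, passed with it in at least 2 comparisons with siNeg, or had the highest FPKM of its role. Up to 3 genes of each further list are named by their smallest adjusted p. Alternatives were pseudocounts of 0.5 and 8, no filter, FPKM + 0.5 (FPKM of at least 0.5), other tools, only the groups compared, the block, and each library left out. Python 3.11.15 was used for sequences.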

Additional observations from a re-analysis of the deposited data

Results flagged for a closer look

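A term for the interaction of both siRNAs was negative for 4 members in the fit with the replicate block, which means that cells with both siRNAs stood lower than the sum of the single differences from siNeg. COL4A1 had an interaction of log2 -0.50 (limma adjusted p = 0.00194 with the block and 0.884 without it), with differences from siNeg of 0.56 for both siRNAs, 0.57 for siCENPF and 0.49 for siFOXM1. NID2 had -0.40 (0.00290, and 0.9999 without the block), SPARC -0.38 (0.00981 and 0.9999) and SERPINH1 -0.29 (0.0459 and 0.9999). With 1 replicate number left out of every group, COL4A1 was called in 2 of 3 settings, NID2 and SPARC in 1 of 3 and SERPINH1 in 0 of 3.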

How the results depend on the processing

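The count of members called without the block, 1 in each comparison with siNeg and 0 in the others, rested on COL4A1. The replicate block, whose pairing comes from the correlated deviations of same-numbered libraries, gave 11 with siCENPF, 15 with siFOXM1 and 15 with both siRNAs against siNeg. It gave 2 for both siRNAs against siCENPF, 8 for siFOXM1 against siCENPF and 4 for the interaction. edgeR with the block gave 11, 16, 15, 2, 8 and 4 of 38 members, and DESeq2 without it 2, 4 and 4 against siNeg. Of 14150 genes, edgeR with the block called 67 higher and 162 lower for both siRNAs against siCENPF. It called 502 and 632 for siFOXM1 against siCENPF, and 13 and 104 for the interaction. The share of all genes that DESeq2 called is not given here, so its member counts are description only. With only the groups compared in the fit the counts were 0, 0 and 0 against siNeg. The F test over the 4 groups called 1 member without the block and 17 with it, an alternative chosen after seeing the data, as were the blocked fits without a number or a siNeg library. The share of all genes that this F test called is not given here, so its member counts are description only. Leaving out 1 library at a time gave 0 to 1 against siNeg and 0 to 0 in the other comparisons and the interaction. Over the named members and alternatives, 958 values kept their direction and side of the threshold, 74 newly passed, 16 no longer passed and 23 changed sign. The cause was not tested. No value that changed sign was a call. Without 1 library at a time, the siCENPF values of these members ran from -0.021 to 0.94 for COL1A1, -0.071 to 0.25 for COL5A2, -0.11 to 0.17 for COL8A1, -0.13 to 0.33 for FN1, -0.11 to 0.36 for VCAN and -0.10 to 0.11 for MMP14, which was -0.015 on FPKM. The siFOXM1 values ran from -0.16 to 0.22 for COL5A2 and -0.053 to 0.19 for COL8A1. With both siRNAs they ran from -0.047 to 0.26 for COL5A2, -0.036 to 0.19 for COL8A1 and -0.13 to 0.065 for LOX. For COL6A1, at 5.98 to 33.1 normalized counts, depth limits the precision.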
